A study of Homo sapiens with 24 samples.

Results

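The genes described here are the 83 protein-coding genes of cytosolic ribosomal proteins among the 54335 genes of the gene-body counts. They were chosen by symbol alone: RPL or RPS with a number, the stalk genes RPLP0, RPLP1 and RPLP2, and RPSA. RPS27L and genes on the Y chromosome were left out, and names were taken from GENCODE by gene ID. 28 of the 83 hold an annotated small nucleolar RNA (snoRNA) inside the gene on the same strand and are called hosts, and 55 hold none and are called non-hosts. 80 of them, all 28 hosts and 52 non-hosts, had enough counts to be tested.

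mNET-seq sequences the RNA that is held by immunoprecipitated RNA Pol II after the chromatin is digested with micrococcal nuclease, and the libraries were made from a short size fraction. The cells were U2OS, a human osteosarcoma line labelled as wild type, and antibodies to the CTD of Pol II phosphorylated on serine 5 (S5P), serine 2 (S2P) or tyrosine 1 (Y1P) were used. For each antibody there were 2 irradiated libraries, from cells given 10 Gy of ionizing radiation (IR), and 2 nonirradiated libraries. The sample labels give 10 min for the irradiation, whereas the Methods of the study give a longer interval before harvest, so the time is not settled. The study writes of biological replicates, in another number than the 2 replicate numbers of the labels, and also of technical ones. Which of these the replicate numbers are is not stated, so p-values measure the spread between these libraries, which may be technical.

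Ribosomal protein genes are among the most strongly transcribed genes of growing cells, and their mRNAs begin with a terminal oligopyrimidine (TOP) tract through which their translation is controlled. Many of them carry snoRNAs in their introns. These are cut out of the spliced intron, and the box C/D class guides ribose methylation of rRNA whereas the box H/ACA class guides pseudouridylation.

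The 28 hosts held 58 snoRNA loci, of which 40 were of the box C/D class and 18 of the box H/ACA class. All 58 lay in introns of the canonical transcript and none had a row of its own in the counts, so a read from a snoRNA and a read from the rest of the gene body add to the same number. No value here tells which part of a gene its reads came from. The snoRNAs of the 2 hosts with the highest level per kb, RPS12 and RPL13A, are shown here with that of RPLP2, a stalk gene with an H/ACA snoRNA. They are read 5′ to 3′ from hg38, all on the plus strand. Capitals mark TGATGA (box C) in the first 20 bases and CTGA (box D) in the last 20 bases of a C/D snoRNA, or ACA in the last 10 bases of an H/ACA snoRNA.
SNORD101 (RPS12, chr6:132815307-132815379): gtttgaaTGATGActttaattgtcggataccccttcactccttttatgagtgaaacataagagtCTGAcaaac
SNORD100 (RPS12, chr6:132816802-132816877): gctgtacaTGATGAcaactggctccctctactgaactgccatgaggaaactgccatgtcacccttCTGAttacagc
SNORA33 (RPS12, chr6:132817219-132817348): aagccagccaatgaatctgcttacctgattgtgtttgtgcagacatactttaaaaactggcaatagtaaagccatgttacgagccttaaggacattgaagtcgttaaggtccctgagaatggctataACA
SNORD32A (RPL13A, chr19:49489965-49490048): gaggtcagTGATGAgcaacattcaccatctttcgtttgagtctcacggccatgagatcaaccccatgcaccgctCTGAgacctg
SNORD33 (RPL13A, chr19:49490615-49490699): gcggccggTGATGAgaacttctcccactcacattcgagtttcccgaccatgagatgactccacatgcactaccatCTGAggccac
SNORD34 (RPL13A, chr19:49490904-49490974): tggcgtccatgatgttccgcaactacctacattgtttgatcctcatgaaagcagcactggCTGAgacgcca
SNORD35A (RPL13A, chr19:49491175-49491260): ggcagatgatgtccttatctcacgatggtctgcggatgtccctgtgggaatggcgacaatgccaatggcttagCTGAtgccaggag
SNORA52 (RPLP2, chr11:811681-811814): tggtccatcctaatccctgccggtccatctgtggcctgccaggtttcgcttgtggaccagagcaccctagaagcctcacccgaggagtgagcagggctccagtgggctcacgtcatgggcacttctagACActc
These letters were searched on the snoRNA's own strand. Both C/D motifs were found in 26 of the 40 C/D loci (65%), in 170 of the 273 other SNORD genes of GENCODE (62.3%) and in 0 of the 40 stretches of the same length that lie just before the member loci. ACA in the last 10 bases was found in 17 of the 18 H/ACA loci (94.4%), in 159 of 196 other SNORA genes (81.1%) and in 1 of 18 stretches just before them (5.56%). SNORD34 and SNORD35A of RPL13A are among the C/D loci without the exact letters of box C.

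Hosts and non-hosts were alike at the gene start. RefSeq starts could be matched for 66 of the 83 genes, and a C at the start base followed by 4 pyrimidines was found in 43 of them (65.2%), against 1429 of all 35116 RefSeq gene starts (4.07%). It was found in 12 of 18 hosts matched (66.7%) and in 31 of 48 non-hosts matched (64.6%). Windows of 15 bases on each side of the boundary before the start base are shown for RPS12 and RPL13A, both hosts, and for 4 non-hosts that rose in Y1P libraries upon IR, with the longest pyrimidine run near the start in capitals (RefSeq, GRCh38.p14, 5′ to 3′ on the gene's strand).
RPS12 (chr6:132814554-132814583, plus): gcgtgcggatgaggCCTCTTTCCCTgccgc
RPL13A (chr19:49487593-49487622, plus): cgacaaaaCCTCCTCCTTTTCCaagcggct
RPS14 (chr5:150449725-150449754, minus): ccgccccctcccaCTCTCTCTTTCCggtgt
RPLP1 (chr15:69452803-69452832, plus): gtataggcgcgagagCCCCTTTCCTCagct
RPS24 (chr10:78033848-78033877, plus): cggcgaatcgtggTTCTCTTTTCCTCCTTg
RPL15 (chr3:23916530-23916559, plus): ggcgctggggCCTgctggaggagcttcacg
RPL15 is the exception among the 6, with a run of 3 pyrimidines at its RefSeq start.

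The 12 libraries held 16220773 to 33144659 gene-body counts. CDKN1A, the p53 target that encodes p21, rose upon IR with all 3 antibodies (quasi-likelihood test of edgeR). Its log2FC was 1.10 with Y1P (adjusted p = 0.000363). It was 0.82 for S2P libraries (adjusted p = 0.00583), and for S5P libraries 0.93 (adjusted p = 0.00269). RUNX2, a marker of the osteoblast lineage, lay at 462 to 695 CPM (counts scaled to library size with TMM factors), whereas COL1A2 reached at most 0.684 CPM. Of the blood markers HBA1, HBB and CD3E stayed at or below 0.0952 CPM and PTPRC lay at 2.70 to 4.43 CPM. Of the neural markers SOX10 and GFAP reached at most 0.713 CPM and RBFOX3 lay at 7.57 to 13.8 CPM, and of the epithelial ones KRT5 and KRT14 reached at most 0.649 CPM and EPCAM and CDH1 lay at 3.92 to 8.44 CPM. The nonirradiated Y1P library of replicate 2 stood apart. It had the lowest TMM factor, 0.835, and 28.2% of its counts on genes that hold a snoRNA, against 9.65 to 22.3% in the other 11 libraries.

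Hosts carried nearly all of the signal on ribosomal protein genes. The 83 genes took 2.515% (95% Wilson interval 2.51 to 2.52, counting error only) of the counts in the irradiated S2P library of replicate 1, the lowest share, and 7.04% (7.03 to 7.05) in the nonirradiated Y1P library of replicate 2, the highest. The hosts held 91.4 to 97.6% of these counts. Non-hosts took 0.167 to 0.271% of a library's counts.

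Levels between genes were compared as CPM per kb of gene body (the gene less its first 200 bases). Hosts had a median of 45.2 CPM per kb (0.114 to 1783, n = 28) and non-hosts one of 5.37 CPM per kb (0 to 23.4, n = 55). 19 hosts lay above RPL8, the highest non-host, and all of the 10 highest genes were hosts. Gene length did not separate the classes, with a median of 5.23 kb (2.78 to 32.0) for hosts and 5.64 kb (0.772 to 80.4) for non-hosts. Among other protein-coding genes tested, 237 that hold a snoRNA had a median of 0.842 CPM per kb and 14340 that hold none had 0.549, so that ribosomal protein genes were high in both classes. Their median length was 5.55 kb, against 39.7 kb for protein-coding genes tested. Levels were not compared with genes of like length, so the part of length in this gap was not tested.

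The level differed by the number and class of the snoRNAs. Genes with 1 snoRNA had a median of 18.8 CPM per kb (n = 11), genes with 2 had 53.9 (n = 9), genes with 3 had 1380 (n = 3, with RPL17 at 0.114) and genes with 4 had 294.9 (n = 5), so the median did not increase at every step. The 14 hosts with only C/D snoRNAs had a median of 164 CPM per kb, the 11 with only H/ACA snoRNAs had 14.8, and the 3 with both (RPS12, RPL21, RPL5) had 447. Expression of the host and RNA from the snoRNA itself cannot be told apart in these counts.

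**Figure D1:**
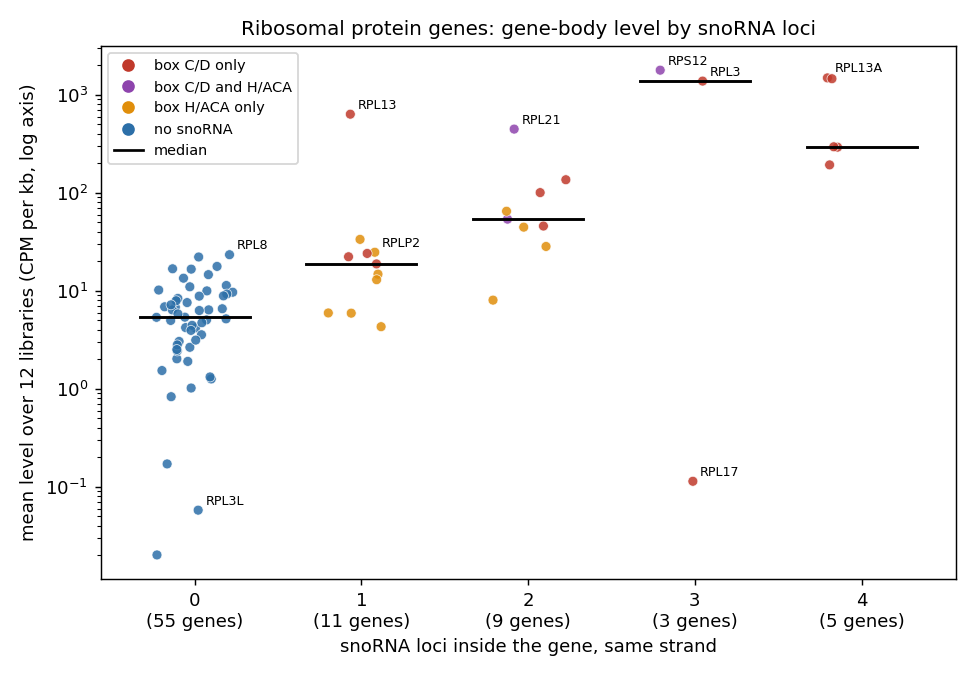
Mean gene-body level over the 12 libraries (CPM per kb, log axis) of each ribosomal protein gene against its number of snoRNA loci, with points coloured by snoRNA class and bars at the class medians. Genes listed at 0 are not drawn, and RPL17 lies far below the other genes with 3 snoRNAs.

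RPS12, of the small subunit, had the highest mean level, 1783 CPM per kb. RPL13A had 1487, RPL3 1380 and RPL13 634 CPM per kb. RPL13A encodes a large subunit protein that also takes part in translational silencing of inflammatory mRNAs, and RPL3 lies close to the peptidyl transferase centre. RPS12, RPL13A and RPL3 hold 3 or 4 snoRNAs each and RPL13 holds 1, SNORD68. Between RPS12, RPL13A and RPL3 the spread over libraries was larger than the gap between means. In CPM, the unit of the next values, RPS12 ranged 6.9-fold over the libraries and RPL3 5.31-fold.

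Further hosts of 3 or 4 snoRNAs were RPL4, whose protein lines the exit tunnel, at 294.9 CPM per kb, RPL23A, a signal recognition particle contact at the tunnel exit, at 292, RPL7A at 193 and RPL17 at 0.114. RPL17 holds SNORD58A, SNORD58B and SNORD58C, yet had 3 to 17 counts in a library. The gene RPL17-C18orf32, its read-through partner, covers 99.3% of it on the same strand, and the counting left out reads that overlap several gene bodies. The same holds for RPS10 and RPL26. RPS10 had 0 counts in all 12 libraries and RPL26 had 0 to 6, with 100% and 99.5% of the gene covered by another gene on the same strand. None of these 3 values measures transcription of the gene. RPL36A, covered to 96.5% by RPL36A-HNRNPH2, kept 133 to 504 counts.

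The stalk genes, whose proteins recruit translation factors to the ribosome, were far closer to each other. RPLP2, which holds SNORA52, had 24.8 CPM per kb, RPLP0 14.6 and RPLP1 9.28, and neither of the last pair holds a snoRNA. The extra and tissue-restricted copies ranged widely. RPL22L1, a copy of RPL22, had 10.2 CPM per kb, above the non-host median, whereas RPL22, of which 56.1% is covered by other genes on the same strand, had 0.832. RPL7L1 had 4.22 CPM per kb, RPL10L, a copy of RPL10 known from testis, 1.26, RPL26L1 1.02, RPL39L, likewise known from testis, 0.172, and RPL3L, known from heart and skeletal muscle, 0.0579. RPL3L and RPL10L had 6 to 33 counts in a library, so differences between libraries were not resolved for them.

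The summed level of the hosts varied far more between libraries than that of the non-hosts. In irradiated Y1P libraries the hosts summed to 48880 and 61350 CPM, against 39750 and 82410 CPM in nonirradiated ones (replicates 1 and 2 in this order throughout). In S2P libraries they summed to 21070 and 42150 CPM when irradiated, against 29860 and 51110 CPM. In S5P libraries they summed to 34150 and 56080 CPM when irradiated, against 37400 and 56820 CPM. The library of replicate 2 was the higher of the 2 in each of the 6 groups. Non-host sums lay between 1894 and 2572 CPM in all 12 libraries.

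**Figure D2:**
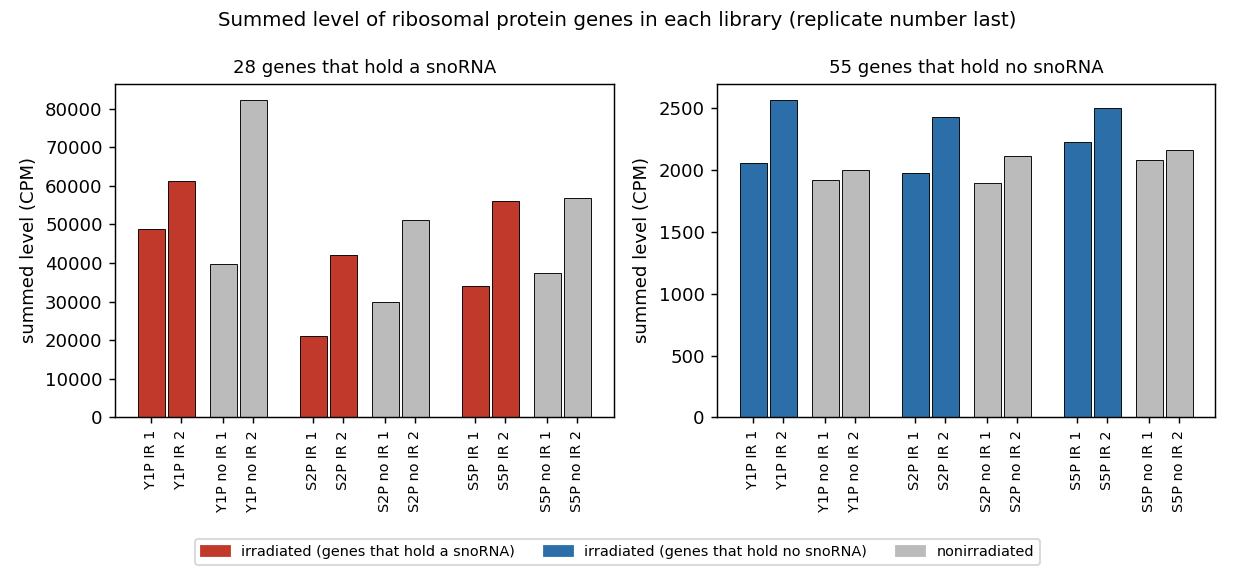
Summed CPM of the 28 hosts (left) and of the 55 non-hosts (right) in each of the 12 libraries, with irradiated libraries coloured and nonirradiated ones grey. Host sums run from 21070 to 82410 CPM and are higher in replicate 2 of every group, while non-host sums run from 1894 to 2572 CPM and are higher in the irradiated library of each replicate pair.

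Single hosts differed accordingly. Of 27 hosts with a mean of at least 50 counts, the highest library lay 1.42 to 11.8-fold above the lowest, with a median of 2.25-fold. For 50 such non-hosts this was 1.21 to 3.75-fold, with a median of 1.599-fold. 12 of the 28 hosts were highest in the nonirradiated Y1P library of replicate 2 and 20 were lowest in the irradiated S2P library of replicate 1, which was also the deepest library. RPL21, a large subunit gene that holds SNORD102 and SNORA27, had the widest range, 602 to 7108 CPM. Between replicate numbers of 1 group, hosts differed by a median size of 0.276 to 0.744 on the log2 scale and non-hosts by 0.104 to 0.299, where the same figure over all genes tested was 0.186 to 0.283.

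The first question was which ribosomal protein genes changed upon IR. The thresholds were those of the study's Methods, 0.05 for the adjusted p and 0.1 for the size of the log2FC. With Y1P, 12 of the 80 genes tested rose and 0 fell, by edgeR's quasi-likelihood test. Over all genes tested 4.38% rose and 4.28% fell, and among protein-coding genes shorter than 10 kb, the size of 61 of the 83, 10.1% rose and 0.965% fell. The share of ribosomal protein genes that rose was 15%. 4 of the 80 had an unadjusted p under 0.05 in the lower direction, against 3033 of all 21246 genes. Of the 12, RPS20 was the only host (1 of 28 hosts, 11 of 52 non-hosts).

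RPS20, a small subunit protein of the head domain and host of SNORD54, had 199.5 and 299.6 CPM in irradiated Y1P libraries and 137.8 and 134.1 CPM in nonirradiated ones. Both irradiated values lay above both nonirradiated ones, and the log2FC was 0.85 (SE 0.13, adjusted p = 0.00972 by edgeR). RPL15, of the large subunit, had 41.9 and 57.0 CPM in irradiated libraries and 31.4 and 34.5 CPM in nonirradiated ones (log2FC 0.57, SE 0.11, adjusted p = 0.0199). RPL36A had 14.9 and 23.8 CPM upon IR and 11.1 and 11.9 CPM without (log2FC 0.71, SE 0.15, adjusted p = 0.0232). Its read-through partner leaves 187 bases of RPL36A uncovered, and where its counts lie was not tested.

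RPL22L1 had 50.1 and 77.8 CPM in irradiated Y1P libraries and 42.8 and 42.9 CPM in nonirradiated ones (log2FC 0.54, SE 0.12, adjusted p = 0.0267 by edgeR). RPS14, a small subunit protein of the platform, had 43.5 and 58.0 CPM upon IR and 35.9 and 37.0 CPM without (log2FC 0.46, SE 0.11, adjusted p = 0.0267). RPL31, a large subunit protein near the tunnel exit, had 104.9 and 131.8 CPM upon IR and 89.2 and 87.8 CPM without (log2FC 0.41, SE 0.09, adjusted p = 0.0268). In each of these genes the groups did not overlap, which follows largely from their choice by this test, and replicate 2 showed the larger difference. RPLP1 of the stalk had 31.2 and 34.8 CPM upon IR and 25.8 and 19.9 CPM without (log2FC 0.53, SE 0.13, adjusted p = 0.0296). Of the other stalk genes RPLP0 had a log2FC of 0.26 (adjusted p = 0.17) and RPLP2 one of -0.15 (adjusted p = 0.46), and neither passed the test. RPL39L, at 12.3 and 15.2 CPM upon IR and 8.63 and 9.42 CPM without, also passed (log2FC 0.60, SE 0.17, adjusted p = 0.0443). The 4 others that rose were RPS24, RPS26, RPS23 and RPL36, with log2FC of 0.38 to 0.52.

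**Figure D3:**
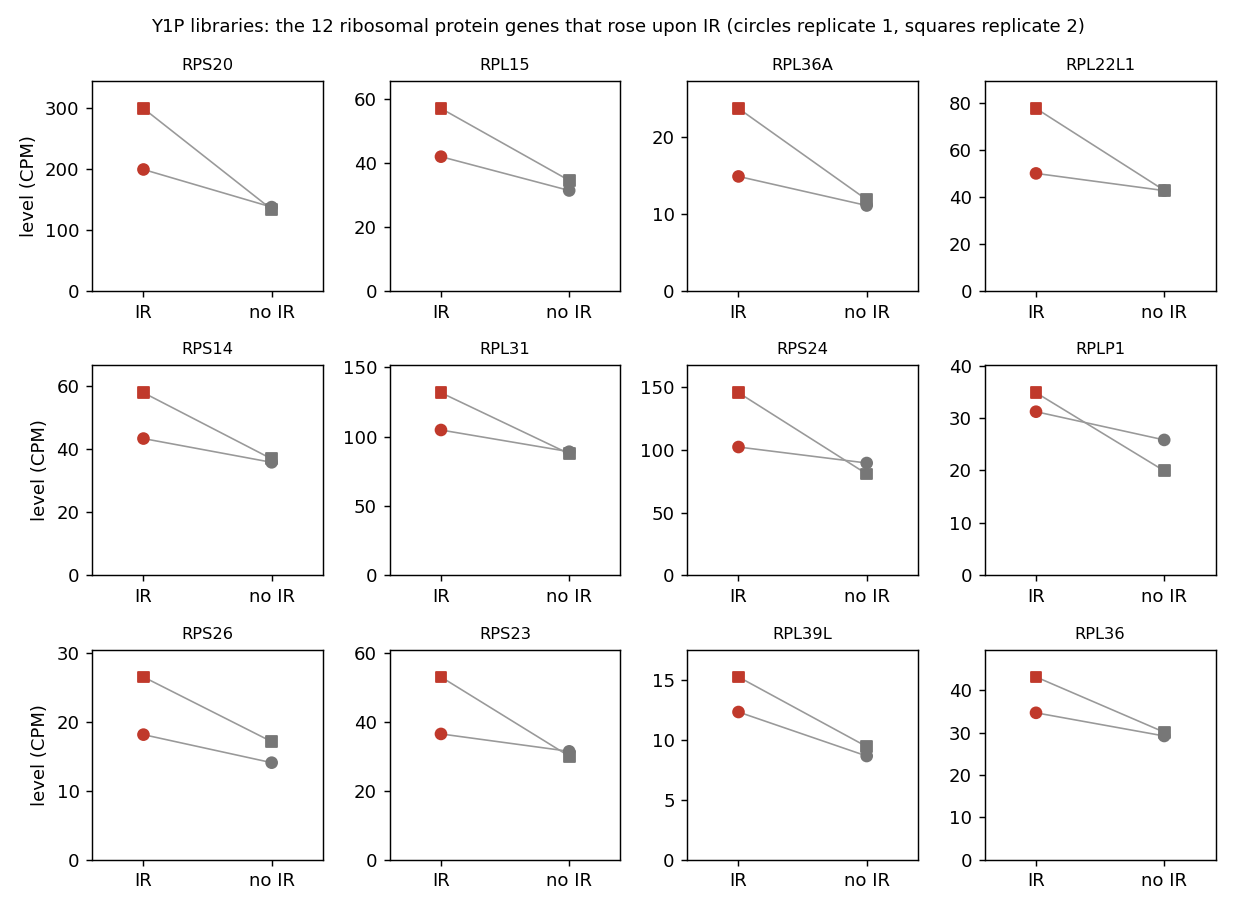
Level (CPM, axes from 0) of the 12 ribosomal protein genes that rose in Y1P libraries upon IR, irradiated left and nonirradiated right, with lines joining libraries of 1 replicate number. In all 12 panels both irradiated values lie above both nonirradiated ones, and on the log2 scale the gap is wider in replicate 2 in all 12. The genes were called in these same libraries, so the lack of overlap follows largely from their choice. Of all genes tested, 35.2% were higher upon IR in both replicate pairs.

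All 12 calls were lost without Y1P replicate 2, the replicate whose nonirradiated library stood apart, where 2 of all genes tested rose, and in a fit without the replicate number as a term, where 0 of all genes rose. With a trend with gene length removed from each library, 2 of the 12 passed, RPS20 and RPL39L, and 6 ribosomal protein genes fell. The share over all genes in that fit is not given here. None of the 12 turned its direction under 17 alternatives. They were chosen by the test in these same libraries, so a turn was unlikely beforehand and its absence adds no support.

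Across the list, hosts had the lower median log2FC upon IR with each antibody. With Y1P the median log2FC was 0.00 in hosts (14 of 28 above 0) and 0.20 in non-hosts (43 of 52 above 0), where it was 0.02 over all genes tested and 0.27 over protein-coding genes shorter than 10 kb. With S2P it was -0.24 in hosts (8 of 28 above 0) and 0.14 in non-hosts (37 of 52), against 0.02 over all genes and 0.21 over the short ones. With S5P it was -0.08 in hosts (11 of 28) and 0.13 in non-hosts (45 of 52), against -0.00 and 0.20. Of 2279 short protein-coding genes 1754, 1762 and 1776 were above 0 with Y1P, S2P and S5P. Of all 21246 genes 11036, 11194 and 10556 were. The non-hosts thus lay on the side of short protein-coding genes with each antibody, and the hosts did not.

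The difference of hosts minus non-hosts in median log2FC was -0.20 with Y1P, -0.37 with S2P and -0.22 with S5P. In pairs of libraries of 1 replicate number it was -0.04 and -0.46 with Y1P, -0.51 and -0.17 with S2P, and -0.34 and -0.12 with S5P. It was below 0 in 6 of 6 pairs and varied by as much as its own size between them. As sums of CPM, the non-hosts were higher upon IR in 6 of 6 pairs, by 0.06 to 0.36 on the log2 scale, and the hosts were lower in 5 of 6, the exception being Y1P replicate 1 at 0.30. Genes outside the list that hold a snoRNA (303 tested) had medians of -0.13, -0.09 and -0.07 with Y1P, S2P and S5P.

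**Figure D4:**
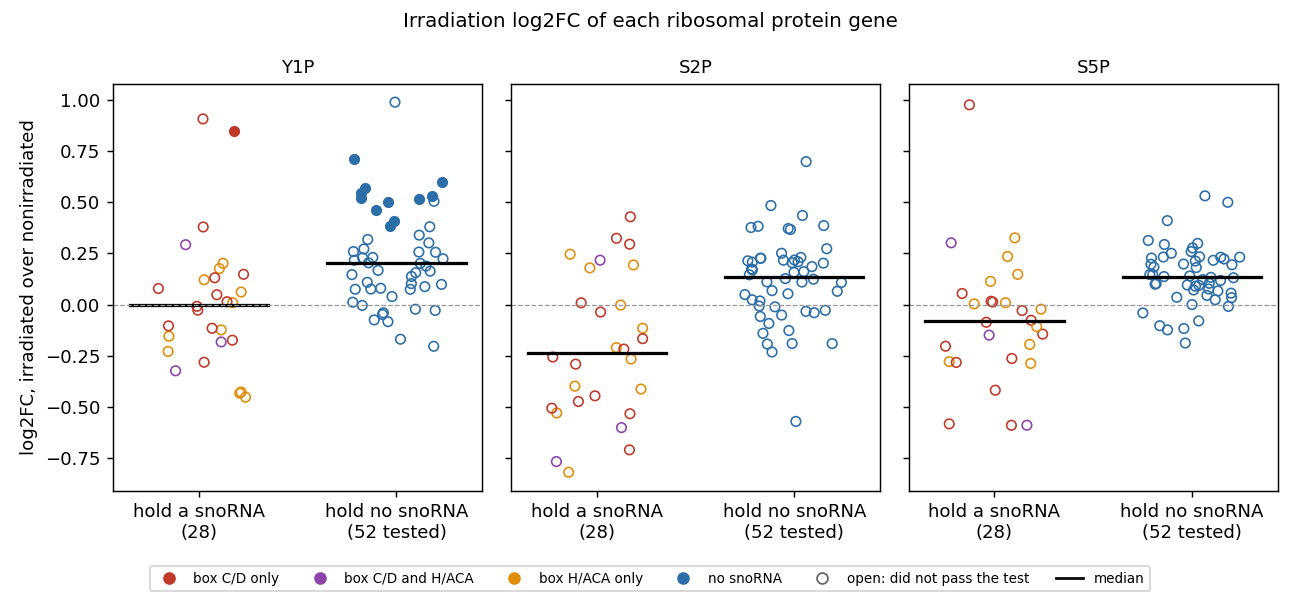
log2FC of irradiated over nonirradiated libraries for the 28 hosts and 52 non-hosts tested, by antibody, with filled points for genes that passed the test, open points for those that did not and bars at the medians. The bar of the hosts lies below that of the non-hosts in all 3 panels, and filled points occur with Y1P alone.

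With S2P and S5P 0 of the 80 genes passed in either direction. Over all genes, 0.0141% rose and 0.0847% fell with S2P, and 0.00941% rose and 0.0424% fell with S5P. Among short protein-coding genes 0% rose with either, and 0.527% fell with S2P and 0.351% with S5P. At an unadjusted p under 0.05, 15 ribosomal protein genes were higher and 12 lower with S2P, and 8 were higher and 6 lower with S5P. Of all 21246 genes 1765 were higher and 1996 lower with S2P at this p, and 1449 and 1020 with S5P. DESeq2 called 2 lower and 0 higher with S2P, and likewise with S5P. Leaving out Y1P replicate 2, though neither of its libraries is an S2P or S5P one, gave 7 lower with S2P and 3 with S5P, and no other replicate left out gave more. The shares over all genes in these alternatives are not given here. At an unadjusted p under 0.05, all 12 genes lower with S2P and all 6 lower with S5P were hosts. RPL36A and RPL22L1, which rose with Y1P, had log2FC of 0.70 (adjusted p = 0.14) and 0.38 (adjusted p = 0.17) with S2P. RPS20 had 0.32 (adjusted p = 0.23) with S2P and -0.03 (adjusted p = 0.95) with S5P. The difference of the IR effect between antibodies was tested as an interaction, and 0 of 80 genes passed for any of the 3 pairs of antibodies by edgeR (0 to 0.00471% of all genes in a direction). At an unadjusted p under 0.05, 1 gene had a higher and 6 a lower IR effect for S2P minus Y1P (of all 21246 genes 372 and 289). For S5P minus Y1P these were 1 and 11 (824 and 745), and for S5P minus S2P 5 and 5 (260 and 661). A call with Y1P and none with S2P or S5P is therefore not shown to be a difference between the antibodies.

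Hosts with 3 or 4 snoRNAs had small average differences upon IR with Y1P, apart from RPL17 with its 3 to 17 counts (log2FC 0.91, adjusted p = 0.30). RPL13A had a log2FC of 0.05 (SE 0.13), RPL3 of -0.01 (SE 0.17), RPS12 of -0.18 (SE 0.19), RPL4 of -0.12 (SE 0.19), RPL23A of -0.17 (SE 0.17) and RPL7A of -0.28 (SE 0.12). None passed the test. The Y1P replicate pairs disagreed in direction in 15 of 28 hosts (6784 of all 21246 genes). RPL13A, RPL3, RPS12, RPL4 and RPL23A were each higher upon IR in replicate 1 and lower in replicate 2. RPL3 had 11340 and 14130 CPM upon IR and 8514 and 19040 CPM without. Their small averages therefore do not show an absence of change. With S2P these 5 genes and RPL7A ran from -0.71 (RPL23A, SE 0.18, adjusted p = 0.14) to -0.22 (RPL7A, SE 0.12, adjusted p = 0.34), also without passing. RPL7A, of the large subunit, had its largest difference with S5P. It had 427 and 471 CPM in irradiated S5P libraries and 676 and 667 CPM in nonirradiated ones, with no overlap, and a log2FC of -0.58 (SE 0.12, adjusted p = 0.13 by edgeR).

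The other question was how ribosomal protein genes divide between the forms of Pol II. Irradiated and nonirradiated libraries were averaged, so that 4 libraries stood against 4, and the 3 comparisons share libraries in pairs. S2P, the form of productive elongation, held less host signal than Y1P. Of 80 genes 23 were lower and 7 higher with S2P than with Y1P (over all genes tested 17.2% were lower and 15.7% higher, and among short protein-coding genes 17.7% and 14.7%). Of the 23 lower genes 15 were hosts, and 0 of the 7 higher genes were. In C/D hosts 12 of 17 were lower (median log2FC -0.42), in H/ACA-only hosts 3 of 11 (median -0.10), and in non-hosts 8 of 52 were lower and 7 higher (median 0.00, against -0.05 over all genes). Of 303 tested genes outside the list that hold a snoRNA, 67 were lower and 54 higher (22.1% and 17.8%, median -0.04). Snorna-holding genes outside the list thus lay near all genes here.

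RPL13, with the smallest p, had 831, 1908, 1153 and 2550 CPM in the S2P libraries (irradiated replicates 1 and 2, then nonirradiated) and 2728, 3350, 2006 and 3710 CPM in the Y1P libraries. Each S2P value lay below the Y1P value of the same treatment and replicate number, and the log2FC was -0.97 (SE 0.11, adjusted p = 1.95e-06 by edgeR). RPL3 had 3586, 8130, 5061 and 11100 CPM with S2P and 11340, 14130, 8514 and 19040 CPM with Y1P (log2FC -1.01, SE 0.12, adjusted p = 3.48e-06). The S2P range of both genes reached into the Y1P range only through the nonirradiated library of replicate 2.

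RPS12 had 1543, 3891, 2497 and 5531 CPM with S2P and 5645, 6342, 4318 and 10670 CPM with Y1P (log2FC -1.10, SE 0.14, adjusted p = 6.74e-06). RPL36A, a non-host, had 9.43, 12.5, 6.33 and 7.03 CPM with S2P and 14.9, 23.8, 11.1 and 11.9 CPM with Y1P (log2FC -0.80, SE 0.11, adjusted p = 1.26e-05). RPL21 had the largest log2FC, -1.32 (SE 0.18, adjusted p = 1.79e-05), with 602, 1551, 1214 and 2226 CPM with S2P and 2538, 2772, 1548 and 7108 CPM with Y1P. Without the nonirradiated Y1P library of replicate 2, 24 genes were lower and 7 higher, and 28 of the 30 calls were kept. Without S2P replicate 1, 8 were lower and 4 higher. In nonirradiated libraries alone 7 were lower and 2 higher (over all genes 3.02% and 5.45%), in irradiated ones alone 23 and 5 (12.6% and 11.9%), and without the replicate number as a term 4 and 3. Where no share over all genes is given for a setting, its counts tell only how far the calls held.

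The 7 genes that were higher with S2P were all non-hosts, and 5 of them belong to the small subunit. RPL35A, a gene mutated in Diamond-Blackfan anaemia, had 45.8, 54.9, 45.5 and 44.3 CPM with S2P and 34.0, 40.9, 37.2 and 32.5 CPM with Y1P, without overlap (log2FC 0.39, SE 0.08, adjusted p = 0.000751). RPS7, a small subunit protein that binds MDM2, had 27.0, 33.4, 31.7 and 29.8 CPM with S2P and 24.03, 23.5, 24.02 and 21.1 CPM with Y1P, also without overlap (log2FC 0.39, SE 0.08, adjusted p = 0.000869). RPL19 followed with a log2FC of 0.36 (adjusted p = 0.00127), RPS6, the substrate of the S6 kinases, with 0.33 (adjusted p = 0.00225) and RPS25 with 0.25 (adjusted p = 0.0133). RPS21 had 0.26 (adjusted p = 0.0183).

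**Figure D5:**
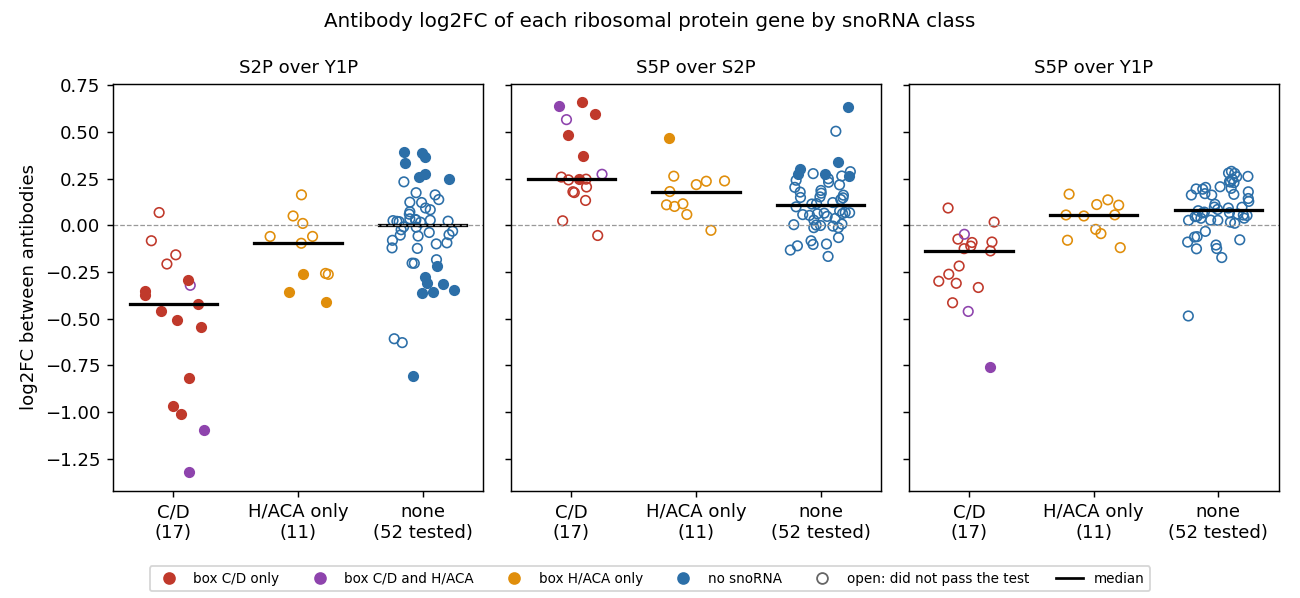
log2FC between antibodies, irradiated and nonirradiated libraries averaged, for C/D hosts (17), H/ACA-only hosts (11) and non-hosts (52 tested), with filled points for genes that passed the test and bars at the medians. In the S2P over Y1P panel the C/D bar lies at -0.42 and the non-host bar at 0.00, and in the S5P over S2P panel the C/D bar is the highest of the 3.

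S5P, the form near gene starts and at splicing, held more than S2P. 13 of the 80 genes were higher with S5P than with S2P and 0 were lower, over a background of 3.13% higher and 4.85% lower among all genes tested, and of 5.18% and 2.41% among short protein-coding genes. 1 of the 80 had an unadjusted p under 0.05 in the lower direction, against 2562 of all 21246 genes. 7 of the 13 were hosts, 6 of them C/D hosts. RPL13 had a log2FC of 0.66 (SE 0.11, adjusted p = 0.00327), RPL36A 0.63 (adjusted p = 0.00341), RPL3 0.59 (adjusted p = 0.00541), RPS12 0.64 (adjusted p = 0.00853) and RPSA, the laminin receptor gene and an H/ACA host, 0.47 (adjusted p = 0.0122). The S2P libraries are those of the comparison with Y1P, so the 2 comparisons are not independent. The medians were 0.25 in C/D hosts, 0.18 in H/ACA-only hosts and 0.11 in non-hosts, against 0.03 over all genes. The 303 tested genes outside the list that hold a snoRNA had a median of 0.01 (9.57% higher, 7.26% lower). All 13 calls were lost without S2P replicate 1, without S5P replicate 1, or without the replicate number as a term. In irradiated libraries alone 2 were higher and 0 lower (over all genes 0.108% and 0.122%), and in nonirradiated ones 0 were (0%).

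Between S5P and Y1P 1 gene differed. RPL21 was lower with S5P, at 1426, 3019, 1266 and 2238 CPM, than with Y1P, at 2538, 2772, 1548 and 7108 CPM (log2FC -0.76, SE 0.18, adjusted p = 0.0416), over a background of 0.471% lower and 0.875% higher (among short protein-coding genes 0.439% and 1.45%). The groups overlapped, and the call was lost without the nonirradiated Y1P library of replicate 2, without either S5P replicate, without the replicate number as a term and in DESeq2. In irradiated libraries alone 1 gene was lower, a C/D host of the small subunit and thus not RPL21, and 0 were higher (over all genes 1.04% and 1.83%). In nonirradiated libraries alone 0 passed (0% over all genes), so RPL21 passed in neither condition alone. At an unadjusted p under 0.05, 8 genes were lower with S5P, all of them hosts, and 16 were higher, none of them hosts, against 1527 lower and 1743 higher of all 21246 genes.

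The subunits had similar median log2FC. Upon IR with Y1P the median log2FC was 0.12 in 51 large subunit genes, 7 of which rose, and 0.16 in 29 small subunit genes, 5 of which rose. With S2P over Y1P it was -0.06 (14 lower, 2 higher) and -0.10 (9 lower, 5 higher). The share higher was 3.92% in large and 17.2% in small subunit genes, against 15.7% of all genes tested. The share lower was 27.5% and 31%, against 17.2%.

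Genes that act on ribosome assembly or translation were read beside the ribosomal protein genes. Over all protein-coding genes tested, 3.57% rose and 5.75% fell with Y1P upon IR (over all genes tested 4.38% and 4.28%). Of 48 ribosome biogenesis factor genes tested, 0 rose and 11 fell with Y1P (median log2FC -0.15), among them UTP4 of the small subunit processome (-0.58, adjusted p = 0.0143), MDN1, the ATPase of large subunit maturation (-0.39, adjusted p = 0.0241), and DDX10 (-0.39, adjusted p = 0.0246). Of 17 snoRNP and rRNA modification genes 0 passed in either direction (median -0.08). Of 15 genes of the RNA polymerase I machinery 1 rose and 3 fell (median -0.18), and of 19 genes of translation factors and other TOP mRNAs tested 0 rose and 2 fell (median -0.15), EIF3L and EIF3H. The median length was 5.55 kb for ribosomal protein genes and 39.7 kb for protein-coding genes tested, and the part of length in these counts was not tested for the 4 lists. With S2P and S5P 0 genes of these 4 lists passed upon IR, where at most 0.0887% of protein-coding genes tested did in a direction. Between S2P and Y1P, 21.7% of protein-coding genes tested were higher with S2P and 12.4% lower (over all genes tested 15.7% and 17.2%). With S2P over Y1P, 37 of the 48 ribosome biogenesis factor genes were higher and 3 lower (median 0.34), as were 8 and 2 of the 17 snoRNP genes, 8 and 1 of the 15 RNA polymerase I genes and 8 and 4 of the 19 translation factor and other TOP mRNA genes, where 7 and 23 of the ribosomal protein genes were.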

How the data were processed

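The deposited counts, made by the authors, are unnormalized numbers of reads in each gene body, which starts 200 bases downstream of the TSS and ends at the TES. Per the labels and the Methods of the study, reads were trimmed with cutadapt, aligned to hg38 with STAR and filtered with SAMtools to unique alignments, reads from internal priming were removed, and featureCounts left out reads that overlap several gene bodies or map to several places, which also affects genes with processed pseudogenes. The annotation release is not given in the sources used here. 1022 repeated IDs with 0 counts and 42 PAR copies on chromosome Y were left out. Gene IDs, stripped of their versions, gave names, lengths and snoRNAs through GENCODE release 44, and 78 IDs not in it hold 0.0116% of the counts. A snoRNA counted as held where a gene of type snoRNA or scaRNA lies wholly inside on the same strand, with overlapping entries merged.

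The table holds 24 runs, which the labels place in 2 batches without saying what the batches are. Runs of 1 replicate number differed by little more than sampling noise (chi-square per degree of freedom 1.06 to 1.10, against 10.0 to 70.2 between replicate numbers of 1 batch) and were summed to 12 libraries. The study writes of other replicate numbers, and how they relate is not stated.

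In R 4.3.3, edgeR 4.0.16 kept 21246 genes (filterByExpr), scaled by TMM and fitted group and the replicate number within each antibody, as the methods' batch term, or 1 replicate term shared by the antibodies for antibody contrasts. Adjusted p-values are Benjamini-Hochberg values of its quasi-likelihood test over all genes kept, with 3 and 5 residual degrees of freedom. The SE is the log2FC over the square root of F. The fits were tested on simulated counts with 1 dispersion for all genes and no difference between replicate numbers. That setting differs from these data, so it does not tell how reliable the calls are here. DESeq2 was run as an alternative.

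The members and lists were chosen with earlier results of these data known, so no test over the list was made. Genes named are, per comparison, up to 6 called members in each direction by smallest p with a mean of at least 50 counts, the 5 highest and 3 lowest per kb, all hosts of 3 or more snoRNAs, the stalk genes and the extra copies. Other names were chosen after their values were seen. Some genes that the rule names are not reported here.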

Additional observations from a re-analysis of the deposited data

How the results depend on the processing

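What libraries of 1 replicate number share is not stated. The log2 difference between replicate numbers was correlated over all genes tested, irradiated against nonirradiated. The correlation was 0.157 (Y1P), 0.263 (S2P) and 0.232 (S5P). Counts in this section are of ribosomal protein genes. No share over all genes stands beside them, so they tell only how the calls depend on the settings. With no replicate block, 0 genes rose with Y1P upon IR, 3 were higher and 4 lower with S2P over Y1P, 0 higher with S5P over S2P and 0 lower with S5P over Y1P. With 1 replicate block shared by the antibodies, 1 rose and 3 fell with S2P upon IR, and 2 fell with S5P. DESeq2 gave 2 that fell with S2P and 2 with S5P. It lost 3 of the 12 Y1P calls (RPL36, RPL39L, RPS26), 5 of 30 for S2P over Y1P, 4 of 13 for S5P over S2P and the 1 for S5P over Y1P.

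With no filter on low counts, 5 fell with Y1P upon IR, 5 rose and 13 fell with S2P, and 2 rose and 4 fell with S5P. The IR effect then differed in 4 genes (S2P minus Y1P), 6 (S5P minus Y1P) and 10 (S5P minus S2P), 23 were higher with S5P over S2P, and 1 was higher and 8 lower with S5P over Y1P. The stricter filter gave 0 lower with S5P over Y1P and a Y1P median log2FC of 0.21 (main value 0.13).

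Runs of 1 replicate number were taken as repeat sequencing of 1 library because they agreed so closely, which the labels do not state. With runs as replicates, 35 rose and 4 fell with Y1P, 22 and 15 with S2P, and 17 and 8 with S5P. The IR effect differed in 5, 15 and 6 genes in the order above, 39 were higher and 1 lower with S5P over S2P, and 14 higher and 11 lower with S5P over Y1P.

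With the length trend removed, the median log2FC upon IR was -0.16 with Y1P (2 rose, 6 fell), -0.10 with S2P and -0.046 with S5P (2 fell). Library totals alone gave medians of 0.33 (Y1P) and 0.23 (S2P), 6 higher with S5P over S2P and 0 lower with S5P over Y1P. Upper quartile factors gave 4 higher with S2P over Y1P. A log2FC beyond 1 left 0 higher and 3 lower with S2P over Y1P, 0 higher with S5P over S2P and 0 lower with S5P over Y1P. Nonirradiated libraries alone gave 2 higher and 7 lower with S2P over Y1P, 0 higher with S5P over S2P and 0 lower with S5P over Y1P, and irradiated ones 2 higher with S5P over S2P.

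Leaving out 1 replicate gave, upon IR, 0 to 17 that rose and 0 to 5 that fell with Y1P, 0 to 1 and 0 to 7 with S2P, and 0 that rose and 0 to 3 that fell with S5P, with a lowest S5P median of -0.0025 and a highest of 0.15. It gave 0 to 4 genes for each difference of IR effects, 4 to 7 higher and 8 to 24 lower with S2P over Y1P, 0 to 16 higher with S5P over S2P and 0 to 1 lower with S5P over Y1P. Leaving out the nonirradiated Y1P library of replicate 2 alone, and adding RefSeq snoRNAs, were chosen after seeing the data. The difference of hosts minus non-hosts in median log2FC stayed below 0 in 20 alternatives for each antibody, at -0.458 to -0.0379 with Y1P, -0.514 to -0.171 with S2P and -0.338 to -0.119 with S5P. The ends of these ranges came from leaving out a replicate. The alternatives reuse the same libraries, whose pairs all lay below 0 already. A change of sign was therefore hardly possible, and its absence adds no support.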
